A study of Homo sapiens with 12 samples.

Results

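The genes of respiratory complexes II, III and IV and of cytochrome c were followed in the human breast cancer line MDA-MB-231 after silencing of FECH, the gene of ferrochelatase. The list holds 35 nuclear genes, named from knowledge of the respiratory chain and found on the array by their gene symbols: the 4 subunits of complex II, 9 of complex III, cytochrome c (CYCS), the enzyme that attaches heme to it (HCCS), the 2 enzymes of heme A synthesis (COX10 and COX15), 10 subunits of complex IV, and 8 genes for copper delivery to and assembly of complex IV. Of these, 33 had a probe set of their own and 32 passed the filter on dim signals, among 12151 genes tested in all.

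Complex II passes electrons of succinate to ubiquinone, complex III passes them on to cytochrome c, and complex IV (cytochrome c oxidase) hands them to oxygen. Ferrochelatase puts iron into protoporphyrin IX as the last step of heme synthesis in mitochondria, and all of these complexes depend on its product. Complex II holds a heme b between SDHC and SDHD, complex III holds hemes b in the mitochondrially encoded cytochrome b and a heme c in CYC1, CYCS carries a heme c between complexes III and IV, and complex IV uses heme A, which COX10 and COX15 make from heme b in turn.

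Total RNA was measured on 12 arrays in 4 groups of 3: 15 nM FECH siRNA with 0.1 mM 5-aminolevulinic acid (5-ALA), 15 nM Allstar control siRNA with 0.1 mM 5-ALA, 0.1 mM 5-ALA without siRNA, and no treatment. 5-ALA is the precursor from which cells build porphyrins, and both siRNA groups received it, so FECH silencing without 5-ALA was not analysed here. Whether the replicates are separate cultures is not in the labels, so p-values here reflect the spread between these 12 samples, which may be technical, and 3 arrays per group limit the precision. Nor do the labels say whether the groups without siRNA received a transfection reagent. FECH was silenced with 1 siRNA of 19 nucleotides, shown here because every difference from that group rests on it, and loss of FECH and other effects of this sequence cannot be told apart:

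FECH siRNA: gaauauccucuugguuccg

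The labels give this run without saying which strand of the duplex it is. FECH, a gene of chromosome 18, had log2 signals of 6.55, 6.62 and 6.43 on the FECH siRNA arrays, against 8.60, 8.54 and 8.51 on the control siRNA arrays, 8.36, 8.60 and 8.53 with 5-ALA only and 8.51, 8.57 and 8.40 with no treatment. The FECH siRNA arrays lay below all others, at 24.7% of the control siRNA signal (log2 fold change -2.02 ± 0.08 SE, limma adjusted p = 1.7e-09, exact permutation p = 0.1, two-sided, the smallest that 3 against 3 allows). Of 8 markers of this mesenchymal-like line, 7 were above the filter level (7.29 on the log2 scale, the median of all probe sets) on all 12 arrays and SPARC on 0. Of these, MSN fell with FECH siRNA against control siRNA (-0.28, adjusted p = 8.5e-04) and against 5-ALA only (-0.61, 1.3e-06) and with control siRNA against 5-ALA only (-0.33, 0.0026), and LGALS1 rose with FECH siRNA against control siRNA (0.17, 0.021). The luminal markers ESR1, PGR and ERBB3 were above it on 0 arrays and GATA3 and EPCAM on all 12. Of 8 markers of other cell types, PTPRC, CD3E and DCN were above it on 0 arrays and COL1A1 and LUM on all 12, and the endothelial marker PECAM1 fell by 1.23 on the log2 scale with FECH siRNA against control siRNA (adjusted p = 7.8e-07). The summed linear signal of these 8 was 1504 to 1709 with FECH siRNA, 1803 to 2166 with control siRNA, 1486 to 1587 with 5-ALA only and 1472 to 1701 with no treatment, and the part of these marker changes in the differences given next was not tested. One untreated array, replicate 3, had 416 genes more than 0.5 log2 units from the mean of the other 2 arrays of its group, with 0 members among these 416. The other 11 arrays had 10 to 115 such genes.

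The members were found under the array's own symbol for 30 genes and through the Entrez gene number for UQCR10, UQCR11 and COX16, which carry older names there. COX6A1, a subunit of complex IV, and COX19, a copper-related assembly factor, lie only on probe sets that name several genes and were not analysed. UQCRB, a small subunit of complex III, had signals of 6.83 to 7.47, was above the filter level on 2 arrays, and was not tested. SDHD, UQCRFS1, UQCRH, COX11 and COX17 have 2 probe sets each, of which the brighter stood for the gene. By number, the probe sets of the other members follow the order of the chromosomes. The brighter sets of SDHD and UQCRFS1 and the dimmer sets of COX11 and COX17 are numbered away from genes of their own chromosome. Whether these read near-identical copies was not tested. By the reference annotation COX15 overlaps ENTPD7, SCO1 overlaps MYH3, SCO2 overlaps TYMP and NCAPH2, and COX11 overlaps TOM1L1 and STXBP4, and whether probe sets of these genes read the neighbour was not tested.

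FECH siRNA against control siRNA, both with 5-ALA, compares the siRNA sequences under the same 5-ALA. UQCR11 and COX15 fell by factors of 1.92 and 1.86, the copper chaperone SCO1 by 1.54, and 3 more assembly factors of complex IV fell by less. CYCS rose by a factor of 1.49, COX10 by 1.32, and 4 further genes by 1.17 to 1.23. Of the 32 tested members 6 rose (UQCRFS1 by its brighter probe set, UQCR10, CYC1, CYCS, HCCS and COX10). Another 6 fell (UQCR11, COX15, SCO1, COX18, SURF1 and COX17), and 20 did not reach an adjusted p below 0.05 in limma. Of all genes tested, 38.3% passed, 20.4% as higher and 17.8% as lower, so the count of 12 of 32 is near the background and is not a result about the list. The members' median log2 fold change was 0.03, against 0.00 over all genes, and their median size of change was 0.13, against 0.16. For all 12 members that passed the groups did not overlap, which by itself gives the same direction in each of the 3 runs of sample numbers. Groups were apart for 15 of the 32 members, against 51.2% of all genes. With the runs of sample numbers taken as a replicate block, 14 members passed, 8 as higher and 6 as lower. Of the 12151 genes 5683 passed with the block. In RNA from whole cultures, less of a transcript in each cell and fewer cells that carry it cannot be told apart.

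**Figure D1:**
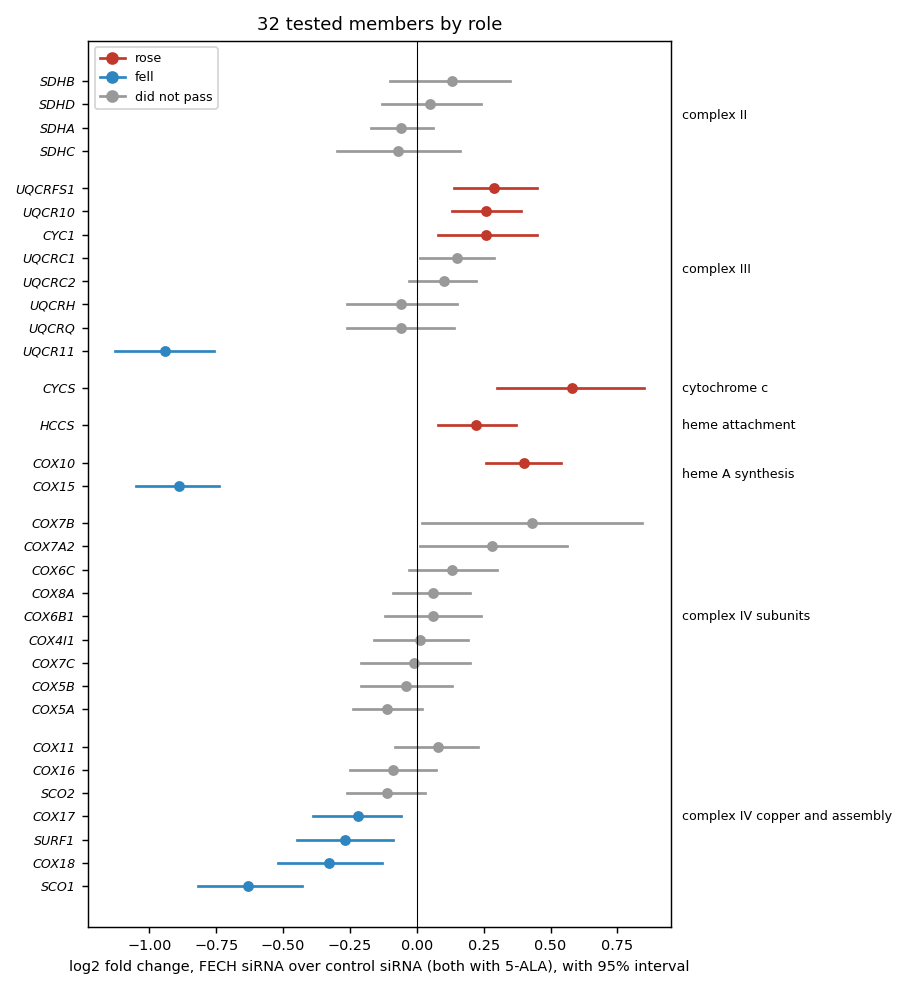
Log2 fold change of the 32 tested members, FECH siRNA over control siRNA (x axis, log2 units; bars are 95% intervals), ordered by role down the page and coloured by call. UQCR11 and COX15 lie at -0.94 and -0.89, CYCS lies at 0.58, and none of the subunits of complexes II and IV is coloured as passing.

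The promoters of 4 members are printed because they belong to the 3 largest falls (UQCR11, COX15 and SCO1) and to COX10, the other enzyme of heme A synthesis, which moved the opposite way from COX15. Each run is 300 bases of RefSeq sequence on GRCh38.p14, 250 before to 50 after the annotated start, written 5′ to 3′ along the gene. Capitals mark matches to the NRF1 motif (GCGC, any base, then TGCGC) and to the ETS motif CCGGAAG, read on both strands (CTTCCGG is the ETS motif on the opposite strand):

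UQCR11, chr19:1605413-1605712, minus strand: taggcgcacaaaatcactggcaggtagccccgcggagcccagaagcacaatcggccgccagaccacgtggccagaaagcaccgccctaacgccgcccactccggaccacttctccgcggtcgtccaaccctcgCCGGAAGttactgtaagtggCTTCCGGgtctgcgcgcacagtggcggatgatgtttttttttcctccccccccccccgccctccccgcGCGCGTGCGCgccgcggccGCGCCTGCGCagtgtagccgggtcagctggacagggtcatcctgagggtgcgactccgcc

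COX15, chr10:99732078-99732377, minus strand: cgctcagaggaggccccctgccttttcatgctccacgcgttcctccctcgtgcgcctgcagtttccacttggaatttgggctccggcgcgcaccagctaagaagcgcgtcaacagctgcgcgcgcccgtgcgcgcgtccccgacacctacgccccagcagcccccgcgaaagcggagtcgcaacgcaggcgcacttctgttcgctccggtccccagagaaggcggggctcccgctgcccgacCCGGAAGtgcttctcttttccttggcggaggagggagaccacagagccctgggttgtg

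SCO1, chr17:10697484-10697783, minus strand: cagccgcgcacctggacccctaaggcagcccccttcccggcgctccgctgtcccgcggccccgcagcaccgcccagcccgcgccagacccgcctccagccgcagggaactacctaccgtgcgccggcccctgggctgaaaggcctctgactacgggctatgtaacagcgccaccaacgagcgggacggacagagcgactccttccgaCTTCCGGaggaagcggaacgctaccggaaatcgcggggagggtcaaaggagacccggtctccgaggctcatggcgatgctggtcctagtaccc

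COX10, chr17:14069254-14069553, plus strand: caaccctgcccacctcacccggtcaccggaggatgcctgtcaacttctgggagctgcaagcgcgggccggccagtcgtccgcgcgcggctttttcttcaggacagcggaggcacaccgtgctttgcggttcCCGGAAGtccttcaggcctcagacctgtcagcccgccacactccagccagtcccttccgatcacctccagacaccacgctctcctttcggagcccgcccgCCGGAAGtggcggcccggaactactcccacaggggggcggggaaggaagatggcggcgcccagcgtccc

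NRF1 and the ETS factor GABPA are known regulators of nuclear respiratory genes. Promoters were given for 29 of the 35 members. The NRF1 motif stood in 8 of these 29 (27.6%), against 8.58% of 15843 protein-coding promoters of the same length. The ETS motif stood in 16 of the 29 (55.2%), against 14.2% of all. The YY1 motif AAGATGGC was in 3 members (10.3%, against 3.91% of all), the SP1 motif GGGCGG in 16 (55.2%, against 58.5%) and CCAAT in 10 (34.5%, against 36.4%). No matches overlapped one another in the members' promoters. The ETS motif was present in 5 of the 6 members that fell, in 2 of the 5 members that rose and have a promoter, and in 8 of the 16 that did not pass. In the same order the NRF1 motif was in 3, 2 and 3 of them and the YY1 motif in 0, 1 and 2. The SP1 motif was in 3, 3 and 8, and CCAAT in 0, 2 and 6. Shares among all genes that fell or rose were not counted. In the printed runs UQCR11 holds 2 NRF1 and 2 ETS matches, COX10 holds 2 ETS matches, and COX15 and SCO1 hold 1 ETS match each, so the motif is in the promoters of genes that fell and of one that rose. These matches describe the letters of the window and are not shown to be bound sites.

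Among the 4 subunits that carry heme, cytochrome c and cytochrome c1 rose and the complex II pair did not pass, with a median log2 fold change of 0.16, where 20.4% of all genes rose. CYCS, the small carrier of electrons from complex III to complex IV that also triggers caspase activation when released, had log2 signals of 9.80, 9.68 and 9.55 with FECH siRNA, 9.19, 8.96 and 9.14 with control siRNA, 9.69, 9.17 and 9.42 with 5-ALA only, and 9.50, 9.19 and 9.53 with no treatment. The FECH siRNA arrays all lay above the control siRNA arrays, which were the lowest group; they overlapped the 5-ALA arrays and lay just above the untreated ones. CYCS was higher by 0.58 ± 0.13 (log2, SE) with FECH siRNA than with control siRNA (95% interval 0.30 to 0.85, adjusted p = 0.0025). CYC1, the heme c subunit of complex III that reduces CYCS, had signals of 10.90, 10.91 and 10.97 with FECH siRNA, against 10.67, 10.52 and 10.81 with control siRNA, so the groups stood apart by less than the spread of the control arrays. The difference was 0.26 ± 0.09 (95% interval 0.08 to 0.45, adjusted p = 0.028), and CYC1 missed the threshold without any one of FECH siRNA replicates 1, 2 or 3 (adjusted p = 0.052, 0.061 and 0.082) or control siRNA replicates 1 or 2 (0.060 and 0.131).

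SDHC and SDHD anchor complex II in the inner membrane and hold its heme b between them. SDHC had signals of 10.02, 9.99 and 9.75 with FECH siRNA, against 10.10, 9.95 and 9.92 with control siRNA. SDHD had signals of 11.53, 11.61 and 11.73 with FECH siRNA, against 11.52, 11.51 and 11.68 with control siRNA. In both genes the groups overlapped, with differences of -0.07 for SDHC (95% interval -0.30 to 0.16, adjusted p = 0.643) and 0.05 for SDHD (-0.13 to 0.24, adjusted p = 0.663). The second probe set of SDHD read 10.12, 10.09 and 10.13 with FECH siRNA and 10.08, 10.10 and 10.07 with control siRNA and did not pass either.

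The enzymes that attach or modify heme all passed the test, 2 of them as higher and 1 as lower, where 38.3% of all genes passed. HCCS, the lyase that links heme to CYCS and CYC1, had signals of 10.44, 10.38 and 10.44 with FECH siRNA, against 10.15, 10.14 and 10.30 with control siRNA. The arrays of the silenced group lay above all control siRNA arrays, by 0.22 ± 0.07 (95% interval 0.08 to 0.37, adjusted p = 0.017). The call was lost without FECH siRNA replicate 1 (adjusted p = 0.055) and without control siRNA replicate 1 or 2 (0.061 and 0.069).

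COX10 adds a farnesyl group to heme b to give heme O, and COX15 oxidises heme O to heme A. COX10 signals were 9.94, 10.11 and 10.05 with FECH siRNA, 9.64, 9.71 and 9.55 with control siRNA, 9.74, 9.79 and 9.80 with 5-ALA only, and 9.73, 9.62 and 9.65 with no treatment. The FECH siRNA arrays were the 3 highest of the 12. COX15 signals were 8.16, 8.07 and 8.02 with FECH siRNA, 9.04, 8.90 and 9.00 with control siRNA, 8.87, 8.90 and 9.05 with 5-ALA only, and 8.93, 8.85 and 8.76 with no treatment. Here the FECH siRNA arrays were the 3 lowest of the 12, with no other array below 8.76. COX10 rose by 0.40 ± 0.06 (95% interval 0.26 to 0.54, adjusted p = 2.3e-04), and COX15 fell by 0.89 ± 0.07 (95% interval -1.05 to -0.74, adjusted p = 5.5e-07), a factor of 1.86. Successive enzymes of heme A synthesis thus moved in opposite directions. HMOX1, the heme-degrading enzyme, averaged 8.67 with FECH siRNA, 10.33 with control siRNA, 10.69 with 5-ALA only and 8.68 with no treatment. ALAS1, the heme-repressed first enzyme of heme synthesis, averaged 9.88, 8.75, 8.71 and 9.46 in the same groups, so that for both genes the FECH siRNA and untreated arrays lay on one side of the other groups.

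**Figure D2:**
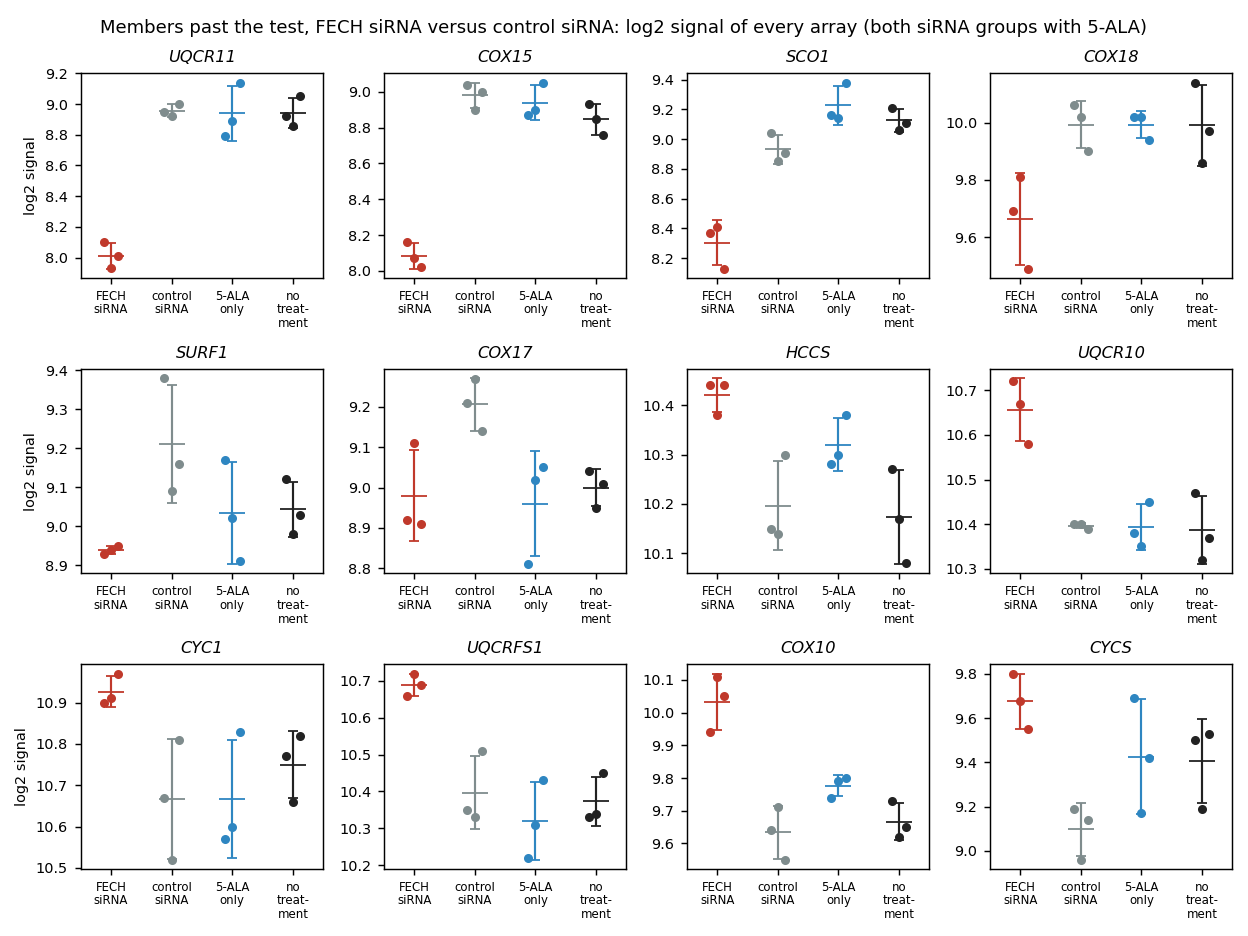
Log2 signal (y axis, its range differs between panels) of the 12 members that passed the test, in FECH siRNA, control siRNA, 5-ALA only and no treatment (x axis). Points are arrays, horizontal bars are means and error bars are SD (n = 3); in UQCR11, COX15 and SCO1 the FECH siRNA points lie below those of the other 3 groups, and in COX10 above them.

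None of the 4 subunits of complex II passed in limma, and 0 of them had an unadjusted p below 0.05, against 46.6% of all genes. SDHA, the flavoprotein that oxidises succinate, differed by -0.06 (adjusted p = 0.431), and SDHB, which carries the iron-sulfur clusters, by 0.13 (adjusted p = 0.380). Complex II differences ran over -0.07 to 0.13, and all 4 overlapped between the groups.

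Of the 8 tested subunits of complex III, 3 rose, 1 fell and 4 did not pass, and rises and falls occurred side by side over all genes too (20.4% and 17.8%). UQCRFS1, the Rieske iron-sulfur protein that hands electrons to CYC1, had signals of 10.66, 10.72 and 10.69 with FECH siRNA, against 10.35, 10.33 and 10.51 with control siRNA. It was higher on every FECH siRNA array, by 0.29 ± 0.07 (95% interval 0.14 to 0.45, adjusted p = 0.0048). A dimmer probe set of UQCRFS1 read 8.50, 8.32 and 8.28 with FECH siRNA, against 8.27, 7.84 and 8.40 with control siRNA. Its groups overlapped and it did not pass (0.20, adjusted p = 0.209), so the rise rests on 1 of 2 probe sets. The files give no position for either. The brighter one is numbered between the probe sets of UQCR10 and SCO2, genes of chromosome 22, while UQCRFS1 is on chromosome 19. Whether it reads a near-identical copy of the gene was not tested, which holds for SDHD and UQCRH too. UQCR10, a small membrane subunit, had signals of 10.72, 10.67 and 10.58 with FECH siRNA, against 10.40, 10.40 and 10.39 with control siRNA. The control arrays were nearly equal and all lay below the FECH siRNA arrays, a rise of 0.26 ± 0.06 (95% interval 0.13 to 0.39, adjusted p = 0.0040).

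UQCR11, the smallest subunit of complex III, went against these 3. Its signals were 8.10, 7.93 and 8.01 with FECH siRNA, 8.95, 8.92 and 9.00 with control siRNA, 8.79, 8.89 and 9.14 with 5-ALA only, and 8.92, 8.86 and 9.05 with no treatment. The FECH siRNA arrays were the 3 lowest of the 12, with no other array below 8.79. UQCR11 fell by 0.94 ± 0.09 (95% interval -1.13 to -0.76, adjusted p = 2.0e-06), a factor of 1.92. The core proteins UQCRC1 and UQCRC2 differed by 0.15 (adjusted p = 0.085) and 0.10 (0.207), and the hinge protein UQCRH and the small subunit UQCRQ by -0.06 each. The second probe set of UQCRH differed by 0.14 and did not pass either (adjusted p = 0.266). UQCRC1 passed when control siRNA replicate 3 was left out (0.21, adjusted p = 0.028), and also under median centring of the arrays (0.047).

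None of the 9 tested structural subunits of complex IV passed in limma, and 2 of them (COX7A2 and COX7B) had an unadjusted p below 0.05, where 38.3% of all genes passed and 46.6% had such a p. Their differences ran over -0.11 (COX5A) to 0.43 (COX7B), with COX4I1 at 0.01, COX5B at -0.04, COX6B1 at 0.06, COX6C at 0.13, COX7A2 at 0.28, COX7C at -0.01 and COX8A at 0.06. COX7B is named after its values were seen, because its arrays spread the most. It read 8.52, 8.61 and 7.99 with FECH siRNA, against 8.24, 8.13 and 7.46 with control siRNA. In both groups replicate 3 lay more than 0.5 below the other arrays, and within each run of sample numbers the FECH siRNA array was the higher. COX7B (adjusted p = 0.095) and COX7A2 (0.092) did not pass, and both rose with the runs as a replicate block (adjusted p = 0.047 and 0.0087). COX7B also passed without control siRNA replicate 1 (adjusted p = 0.043) or FECH siRNA replicate 3 (0.021), and COX6C passed without FECH siRNA replicate 3 (0.049).

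Of the 7 tested genes for copper delivery and assembly of complex IV, 4 fell and 0 rose, where 17.8% of all genes fell and 20.4% rose, and the median was -0.22, against 0.00 over all genes. SCO1, an inner membrane protein that passes copper to the CuA site of COX2, had signals of 8.37, 8.41 and 8.13 with FECH siRNA, 9.04, 8.85 and 8.91 with control siRNA, 9.16, 9.14 and 9.38 with 5-ALA only, and 9.21, 9.06 and 9.11 with no treatment. The FECH siRNA arrays were the 3 lowest, and the control siRNA arrays lay below all 5-ALA and untreated arrays. SCO1 fell by 0.63 ± 0.09 (95% interval -0.82 to -0.43, adjusted p = 1.0e-04). COX18, which moves the C-terminal part of COX2 across the inner membrane, had signals of 9.69, 9.81 and 9.49 with FECH siRNA, against 10.06, 10.02 and 9.90 with control siRNA. Its groups were apart, by -0.33 ± 0.09 (95% interval -0.52 to -0.13, adjusted p = 0.010), and without the lowest array, FECH siRNA replicate 3, the difference was -0.24 and missed the threshold (adjusted p = 0.050).

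SURF1, which acts early in complex IV assembly and is mutated in a form of Leigh syndrome, read 8.93, 8.94 and 8.95 with FECH siRNA, against 9.38, 9.09 and 9.16 with control siRNA. The FECH siRNA arrays were nearly equal and all lower, by -0.27 ± 0.08 (95% interval -0.45 to -0.09, adjusted p = 0.021). COX17, which carries copper in the intermembrane space to SCO1 and COX11, read 8.92, 9.11 and 8.91 with FECH siRNA, against 9.21, 9.27 and 9.14 with control siRNA. It was lower by -0.22 ± 0.08 (95% interval -0.39 to -0.06, adjusted p = 0.035), and its second probe set fell too (-0.20, adjusted p = 0.046). That second set is numbered away from genes of chromosome 3, where COX17 lies, and what it reads was not tested. For both genes the control siRNA arrays stood above the 5-ALA and untreated means (9.03 and 9.04 for SURF1, 8.96 and 9.00 for COX17). SURF1 missed the threshold without FECH siRNA replicate 1 or 2 (adjusted p = 0.056 and 0.054) or control siRNA replicate 1 (0.093), and COX17 without FECH siRNA replicate 1 or 3 (0.112 and 0.118) or control siRNA replicate 1 or 2 (0.075 and 0.121). COX17 was also lost with each array centred on its median (adjusted p = 0.085).

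COX11, which delivers copper to the CuB site of COX1, differed by 0.08, the assembly factor COX16 by -0.09 and the SCO1 relative SCO2 by -0.11. None of these passed. The second probe set of COX11 differed by 0.33 (adjusted p = 0.053).

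COX15 and SCO1 both start within 1000 bases of a gene on the opposite strand, which was looked up after their values were seen. Such a neighbour was tested for 6 members, in FECH siRNA against control siRNA. The neighbours EMC8 (beside COX4I1), LRRC41 (beside UQCRH) and ADPRM (beside SCO1) rose, by 0.25, 0.23 and 0.56, where 20.4% of all genes rose. LRRC41 did not pass for FECH siRNA against 5-ALA only or no treatment (0.15, adjusted p = 0.079 in each), while EMC8 and ADPRM rose there too. CUTC, a copper homeostasis gene whose start lies 107 bases from that of COX15, read 8.81, 8.92 and 8.63 with FECH siRNA, against 8.90, 8.72 and 8.49 with control siRNA. Its groups overlapped, with a difference of 0.08 (95% interval -0.15 to 0.31, adjusted p = 0.590). ADPRM, a hydrolase of ADP-ribose whose start lies 61 bases from that of SCO1, read 7.84, 8.01 and 7.87 with FECH siRNA, against 7.47, 7.23 and 7.33 with control siRNA. Its groups were apart and it rose by 0.56 ± 0.10 (adjusted p = 5.0e-04) while SCO1 fell. ADPRM thus rose where SCO1 fell, and the interval of CUTC did not reach the change of COX15.

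**Figure D3:**
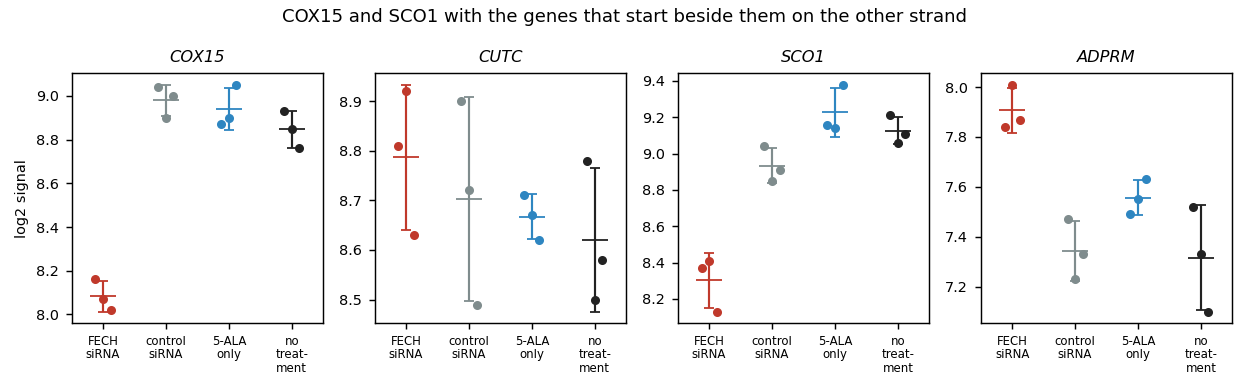
Log2 signal (y axis, its range differs between panels) of COX15, CUTC, SCO1 and ADPRM in FECH siRNA, control siRNA, 5-ALA only and no treatment (x axis). Points are arrays, horizontal bars are means and error bars are SD (n = 3); the FECH siRNA points are lowest for COX15 and SCO1 and highest for ADPRM, and overlap the others for CUTC.

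Against 5-ALA only, the group without siRNA, FECH siRNA arrays showed the same deep falls of UQCR11, COX15 and SCO1, and higher levels of several complex III subunits and of COX8A, while CYCS, HCCS, SURF1 and COX17 did not pass. This comparison uses the same FECH siRNA arrays, so it is no independent repeat. Of 32 members 7 rose, 4 fell and 21 did not pass, where 37.0% of all genes passed, 19.5% as higher and 17.5% as lower. Groups were apart for 13 members, against 50.0% of all genes. UQCR11 fell by 0.92 (adjusted p = 2.6e-06), COX15 by 0.86 (9.0e-07), SCO1 by 0.92 (3.8e-06) and COX18 by 0.33 (0.0097). In complex III, UQCRFS1 rose by 0.37 (adjusted p = 9.0e-04), UQCRC1 by 0.32 (0.0017), UQCR10 by 0.27 (0.0035), CYC1 by 0.26 (0.029) and UQCRC2 by 0.16 (0.044). COX10 rose by 0.26 (adjusted p = 0.0061). COX8A, a small subunit of complex IV, read 11.56, 11.53 and 11.58 with FECH siRNA, 11.26, 11.23 and 11.25 with 5-ALA only, and 11.30, 11.25 and 11.34 with no treatment. All FECH siRNA arrays were above both of these groups, and COX8A rose by 0.31 against 5-ALA only (adjusted p = 0.0028). The levels of CYCS (0.25, adjusted p = 0.144), HCCS (0.10, 0.262), SURF1 (-0.09, 0.434) and COX17 (0.02, 0.877) did not pass.

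The groups without siRNA also place the members whose values on the siRNA arrays stand above. UQCRFS1 read 10.22, 10.31 and 10.43 with 5-ALA only and 10.33, 10.34 and 10.45 with no treatment, and UQCR10 read 10.38, 10.35 and 10.45 with 5-ALA only and 10.47, 10.32 and 10.37 with no treatment. Every FECH siRNA array of these complex III genes (lowest 10.66 for UQCRFS1 and 10.58 for UQCR10) was higher than all 9 others. For UQCRFS1 this holds for the brighter probe set alone. Its dimmer probe set did not pass for FECH siRNA against 5-ALA only (0.18, adjusted p = 0.253) or no treatment (0.23, 0.147). CYC1 read 10.57, 10.60 and 10.83 with 5-ALA only and 10.77, 10.66 and 10.82 with no treatment, just under its lowest FECH siRNA array at 10.90. UQCRC1 averaged 9.44 ± 0.07 with FECH siRNA, 9.29 ± 0.11 with control siRNA, 9.12 ± 0.01 with 5-ALA only and 9.16 ± 0.06 with no treatment (SD, n = 3 each), so that the control siRNA arrays lay between. HCCS read 10.28, 10.30 and 10.38 with 5-ALA only, up to the lowest FECH siRNA value, and 10.27, 10.17 and 10.08 with no treatment, below it. COX18 read 10.02, 10.02 and 9.94 with 5-ALA only and 10.14, 9.86 and 9.97 with no treatment, all above the highest FECH siRNA array at 9.81. The copper and assembly genes SURF1 (9.17, 9.02 and 8.91 with 5-ALA only, 9.12, 8.98 and 9.03 with no treatment) and COX17 (8.81, 9.02 and 9.05, and 9.04, 8.95 and 9.01, in the same order) had 5-ALA arrays that overlapped the FECH siRNA arrays.

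With the runs as a replicate block, 15 members passed against 5-ALA only, 11 of them higher, because SDHD (adjusted p = 0.0091), CYCS (0.031), COX7A2 (0.026) and COX11 (0.023) were added. Of all genes 45.6% passed with the block, so this count too is near the background. UQCRC2 was lost without FECH siRNA replicate 1, 2 or 3 (adjusted p = 0.055, 0.116 and 0.112) or 5-ALA replicate 2 or 3 (0.067 and 0.162), and CYC1 without FECH siRNA replicate 1, 2 or 3 (0.053, 0.063 and 0.085) or 5-ALA replicate 1 or 2 (0.113 and 0.100). CYCS passed without 5-ALA replicate 1 (0.38, adjusted p = 0.029), SDHD without 5-ALA replicate 3 (0.038) and COX11 without FECH siRNA replicate 3 (0.015).

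Against no treatment, which differs from the FECH siRNA group in both agents, 7 members rose, 4 fell and 21 did not pass, where 37.3% of all genes passed, 21.0% as higher and 16.3% as lower. Groups were apart for 15 members, against 47.9% of all genes. UQCR11 fell by 0.93 (adjusted p = 2.5e-06), SCO1 by 0.82 (1.1e-05), COX15 by 0.77 (2.4e-06) and COX18 by 0.33 (0.011). COX10 rose by 0.37 (adjusted p = 4.9e-04), UQCRFS1 by 0.32 (0.0030), UQCRC1 by 0.28 (0.0044), UQCR10 by 0.27 (0.0029), COX8A by 0.26 (0.0082), HCCS by 0.24 (0.011) and UQCRC2 by 0.17 (0.030). CYC1 (0.18, adjusted p = 0.121) and CYCS (0.27, 0.113) did not pass. The second probe set of COX11 rose (0.34, adjusted p = 0.048) while the first did not pass.

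With the block, 16 members passed against no treatment, 11 of them higher. Those added were CYC1 (adjusted p = 0.027), CYCS (0.022), SDHD (0.037) and COX7A2 (0.0075) as higher and SCO2 (0.038) as lower. Of all genes 46.3% passed with the block. UQCRC2 was lost without FECH siRNA replicate 2 or 3 (adjusted p = 0.087 and 0.083) or untreated replicate 2 (0.122), and COX18 without FECH siRNA replicate 3 (-0.24, 0.053). COX6C was gained without FECH siRNA replicate 3 (0.017) or untreated replicate 3 (0.048), COX7A2 without untreated replicate 3 (0.017), and COX7B (0.049) and COX11 (0.027) without FECH siRNA replicate 3.

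**Figure D4:**
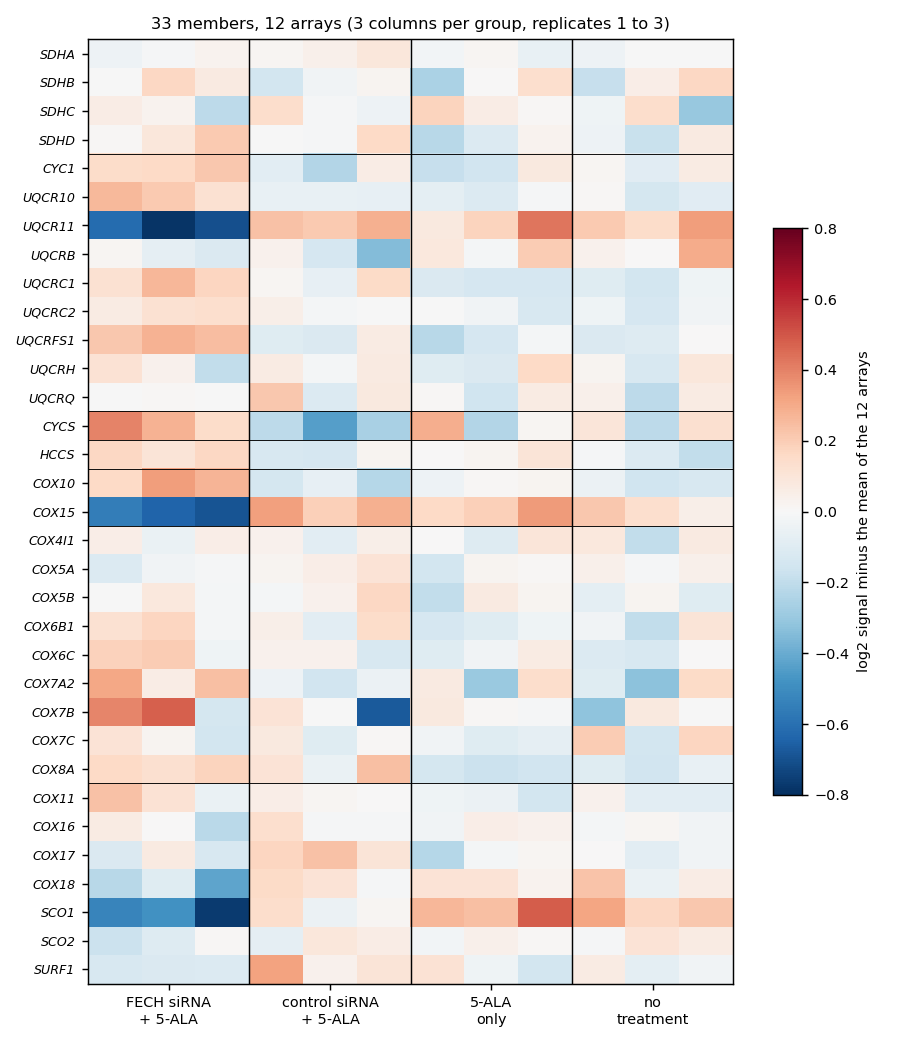
Log2 signal minus the mean of the 12 arrays (colour, -0.8 to 0.8) for the 33 members with a probe set of their own (rows, by role), on the 3 arrays each of FECH siRNA, control siRNA, 5-ALA only and no treatment (columns). UQCR11, COX15 and SCO1 are deepest blue on the FECH siRNA arrays, and COX7B is deepest blue on control siRNA replicate 3, at 7.46.

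Across all 4 groups together, 11 of the 32 members passed limma's moderated F test, against 40.7% of all genes: UQCRC1, UQCRFS1, UQCR10, UQCR11, CYCS, HCCS, COX10, COX15, COX8A, COX18 and SCO1. CYC1, SURF1 and COX17, which passed in the comparison of the siRNA groups, did not pass it.

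The control siRNA itself was set against 5-ALA only, and 1 of 32 members passed, as higher, where 6.20% of all genes did, 2.52% as higher and 3.68% as lower. Groups were apart for 7 members, against 27.1% of all genes. COX8A read 11.51, 11.35 and 11.64 with control siRNA, against 11.26, 11.23 and 11.25 with 5-ALA only. All 3 control siRNA arrays were higher, by 0.25 ± 0.07 (95% interval 0.11 to 0.40, adjusted p = 0.045). The call was lost without 5-ALA replicate 1, 2 or 3 (adjusted p = 0.096, 0.114 and 0.118) or control siRNA replicate 1 or 3 (0.098 and 0.163). With the runs as a block 4 members passed, where 13.6% of all genes did: COX8A, COX17 (0.24, adjusted p = 0.044) as higher, and CYCS (-0.33, 0.027) and SCO1 (-0.30, 0.047) as lower. Set side by side, the log2 fold changes of FECH siRNA over control siRNA and over 5-ALA only, which share the FECH siRNA arrays, were 0.58 and 0.25 for CYCS, -0.22 and 0.02 for COX17, and -0.63 and -0.92 for SCO1.

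Against no treatment, 0 of 32 members passed for control siRNA, where 4.62% of all genes did (2.39% as higher, 2.22% as lower), and 4 had an unadjusted limma p below 0.05 (17.9% of all genes). Groups were apart for 5 members, against 21.1% of all genes. With the block, where 10.7% of all genes passed, CYCS fell (-0.31, adjusted p = 0.041) and COX8A rose (0.21, 0.038), and COX8A also passed without control siRNA replicate 2 (0.044).

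5-ALA only against no treatment, the comparison that isolates the precursor, gave 0 of 32 members past the test, where 0.0165% of all genes passed, and 0 members with an unadjusted limma p below 0.05, where 2.82% of all genes had one. Groups were apart for 2 members, against 6.37% of all genes. Member differences ran over -0.14 to 0.15, while HMOX1 rose by 2.01 (adjusted p = 7.9e-06) in the same arrays. These p-values do not show the members to be equal.

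Genes around the list were counted in FECH siRNA against control siRNA, where 38.3% of all genes passed, 20.4% as higher and 17.8% as lower. Of 27 other assembly factors of complexes II to IV, 10 rose and 1 fell, together near the share of all genes that passed. COA7 (0.62, adjusted p = 0.0010), CMC2 (0.42, 0.0033) and COX20 (0.36, 0.0015), all of them factors for complex IV, rose, and SDHAF3, which matures the iron-sulfur subunit of complex II, fell by 0.56 (1.3e-04). COA7 was lowest with control siRNA (mean 8.08, against 8.44 with 5-ALA only) and did not pass for FECH siRNA against 5-ALA only (0.26, adjusted p = 0.107). CMC2 (0.36, 0.0088) and COX20 (0.57, 4.7e-05) rose there too, and SDHAF3 fell (-0.57, 1.3e-04). COX7A2L, which joins complexes III and IV into supercomplexes, rose (0.18, adjusted p = 0.049) as 1 of 2 tested alternate subunits. Transcripts of the mitochondrial genome, 8 of which were tested, gave 0 calls in limma and 0 unadjusted p-values below 0.05, with differences of -0.05 to 0.15.

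Complex I had 2 that rose and 5 that fell among 34 nuclear subunits. NDUFC2, of its membrane arm, fell by 0.93 (adjusted p = 1.6e-06), NDUFV2, of its matrix arm, by 0.84 (6.6e-06), and NDUFS7, which holds the last iron-sulfur cluster, rose by 0.37 (7.0e-04). In ATP synthase 2 rose and 2 fell among 17: the alpha subunit ATP5F1A of the F1 head fell by 0.93 (adjusted p = 3.1e-06) and the stalk subunit ATP5PD by 0.21 (0.013), while the stalk subunit ATP5PB rose by 0.29 (0.0042) and the ring subunit ATP5MC1 by 0.28 (0.012).

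Of 15 nuclear regulators of respiratory genes 6 rose and 2 fell, beside the 20.4% and 17.8% of all genes. PPARGC1A, a coactivator of mitochondrial biogenesis, averaged 9.44 with FECH siRNA, 8.31 with control siRNA, 7.92 with 5-ALA only and 7.90 with no treatment, and rose by 1.13 (adjusted p = 8.7e-06). Its relatives PPRC1 (0.37, adjusted p = 0.0038) and PPARGC1B (0.35, 0.0043) rose less. PPRC1 averaged 8.97 with FECH siRNA, 8.60 with control siRNA, 8.85 with 5-ALA only and 8.88 with no treatment. It did not pass for FECH siRNA against 5-ALA only (0.12, adjusted p = 0.317) or no treatment (0.09, 0.462). PPARGC1B rose against 5-ALA only (0.31, 0.0093) and did not pass against no treatment (0.21, 0.059). SP1, which binds GC boxes, fell by 0.67 (adjusted p = 3.5e-06), and GABPA, the DNA-binding subunit of the ETS factor named above, was the other regulator that fell. GABPA fell against no treatment too but did not pass for FECH siRNA against 5-ALA only. GABPB2 was among the regulators that rose, in each of these comparisons. A link of these changes to the motifs was not tested.

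**Figure D5:**
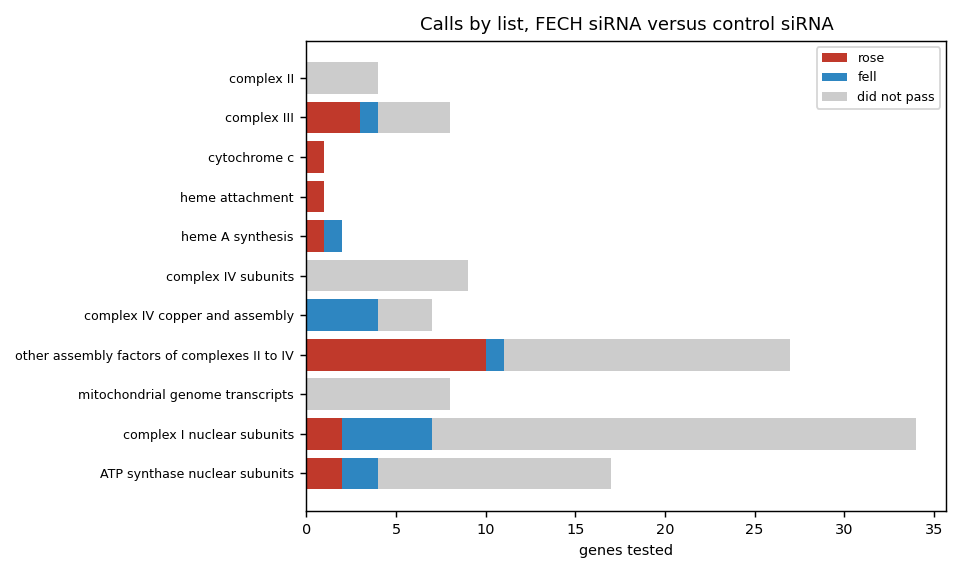
Number of genes tested (x axis) in each role and neighbouring list (y axis), split into those that rose, fell and did not pass, FECH siRNA against control siRNA. Calls are of the fit without the replicate block. The copper and assembly genes of complex IV show 4 falls of 7, the other assembly factors 10 rises and 1 fall of 27, and complex II, the complex IV subunits and the mitochondrial transcripts 0 calls.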

How the data were processed

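Members and gene lists were chosen with earlier results of these data known. The deposited intensity values of 12 arrays are linear signals (21.0 to 23641), made with RMA in oligo per the submitters' processing notes, which corrects background, normalizes arrays and summarises probes. Versions, and the build, were not given in the sources used here. Another 12 columns of per-sample values were not used. Log2 of the deposited signals was taken here with a pseudocount of 0.

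Of 28869 probe sets, 19937 name 1 gene. Symbols were updated through Entrez numbers. Genes above 7.29, the median log2 signal, on at least 3 arrays were kept, by their brightest probe set, which left 12151. limma 3.58.1 in R 4.3.3 (data.table, version 1.17.8) fitted 1 mean per group over 12 arrays, with two-sided p-values adjusted by Benjamini-Hochberg within each of 6 comparisons. No detection values were used.

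Sample numbers in the titles form 3 runs of 4. After group means were removed, same-run arrays correlated at 0.207 to 0.539 (18 pairs) and arrays of different runs at -0.436 to 0.154 (36 pairs). Within their run 12 of 12 arrays correlated best, so the runs pair the samples, which the main fit leaves out. A fit with the runs as a replicate block stands beside results of members that it changed.

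Named genes were the members, with values per array for those that passed between the siRNA groups or without FECH siRNA, for heme-carrying and heme-modifying ones, up to 4 past the test per neighbouring list (1 such gene is not reported here), and FECH, HMOX1 and ALAS1. Alternatives were other filters (none, 70th percentile), normalizations (cyclic loess, median centring), a pseudocount of 16, trended or robust variances, array weights, only the groups compared, the mean of probe sets, the block, each array left out and a threshold of 0.01. Each probe set alone was added after seeing the data. Scripts were tested on simulated data.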

Additional observations from a re-analysis of the deposited data

How the results depend on the processing

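The 3 arrays per group limit the precision, so that differences near 0.2 on the log2 scale passed or missed the threshold with the choice of arrays; deposited values give no background level. Under the alternatives no member reversed direction while called, and the replicate block lost no call. Members that passed between FECH siRNA and control siRNA numbered 12, and 7 at an adjusted p below 0.01. Against no treatment FECH siRNA had 11, and 19 with array weights. For these FECH siRNA comparisons the share of all genes at 0.01 or with array weights is not given here, so neither count is a result about the list. Control siRNA against 5-ALA only had 1, 0 with no filter, with median centring, with only the groups compared and at 0.01, and 4 with the replicate block; control siRNA against no treatment had 0, and 2 with the block. The causes were not tested. Leaving out each array gave 8 to 13 members for FECH siRNA against control siRNA. Against 5-ALA only it gave 9 to 11, and against no treatment 10 to 13. All genes that passed numbered 3810 to 4217, 3666 to 4023 and 3675 to 4342 in this order. With every array kept they numbered 4651, 4495 and 4537. Members numbered 0 to 1 for control siRNA against 5-ALA only or no treatment. For 5-ALA only against no treatment they numbered 0, and for the F test 8 to 13, without a share of all genes beside the latter. The FECH difference stayed at -2.06 to -1.97. Over all genes, control siRNA against 5-ALA only had 753 calls, 1652 with the block, 263 at 0.01 and 350 to 493 with an array left out, and against no treatment 561, 1296 with the block, 210 with only the groups compared, 190 at 0.01 and 270 to 447 with an array left out. Median centring, which shifts groups by at most 0.04, moved the split of higher and lower calls in control siRNA against 5-ALA only to 170 and 537, where it was 306 and 447, and against no treatment to 156 and 269, where it was 291 and 270. Other assembly factors between the siRNA groups numbered 11, 6 at 0.01 and 7 without FECH siRNA replicate 1 or 2 or control siRNA replicate 2 or 3. ATP synthase subunits numbered 4, and 2 at 0.01. The share of all genes at 0.01 is not given for these lists either.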
